A study of Mus musculus with 4 samples.

Results

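Kruppel-like factors (KLFs) were followed in mouse long-term haematopoietic stem cells (LT-HSC), the marrow fraction that rebuilds blood for life, and short-term haematopoietic stem cells (ST-HSC), its neighbour with shorter reconstitution. The members were 10 genes (Klf2, Klf3, Klf4, Klf6, Klf7, Klf9, Klf10, Klf11, Klf12 and Klf13) of 18193 named genes on the array. All 36 probe sets annotated to one of these symbols alone were taken, of 34945 probe sets with 1 symbol, and 0 probe sets named a member together with another gene. Of the 36, 26 were bright enough to be tested, with at least 1 for every gene. In LT-HSC 7 of these 26, from Klf2, Klf4, Klf6, Klf7 and Klf9, were higher by limma, and 0 were higher in ST-HSC. Of all 27022 tested probe sets 6.72% and 5.48% were called in these directions. With the dim probe sets tested too, 4 of the 7 calls remained. Klf6 was called on 2 of 4 tested probe sets, and Klf7 and Klf9 on 1 of 4 each.

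KLFs are transcription factors that bind GC-rich and CACCC sequences through zinc fingers near the C-terminal end, while the variable N-terminal part recruits activators or repressors. Klf2 keeps resting T cells quiescent and directs their trafficking, Klf4 restrains proliferation in epithelia and promotes monocyte differentiation, and Klf1, outside the members, drives globin expression in red cells. Several KLF genes are also induced rapidly by growth factors, stress and hormones, much like the immediate early genes.

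The 4 expression arrays held LT-HSC replicates 1 and 2 and ST-HSC replicates 2 and 3, all from the study's control mice, on a C57BL/6 background. These mice carry floxed alleles but lack the Mx-Cre transgene, so those alleles were not the target of a recombinase. LT-HSC were sorted as Lin-cKit+Sca1+CD34-CD135- marrow cells and ST-HSC as the CD34+ counterpart. All mice were given poly(I:C), a double-stranded RNA mimic and interferon inducer, in 7 injections. Mice aged 7.5 weeks, killed 4 weeks after the last dose, gave both LT-HSC samples and ST-HSC replicate 2, whereas ST-HSC replicate 3 was taken at 8.5 weeks of age and 3 weeks after dosing. The labels do not say whether animals were pooled or whether the LT-HSC replicates were separate animals, so the p-values measure the spread between these arrays, which may be technical in part. One label of the ST-HSC samples names them LT-HSC although their gate is CD34+, so the titles were used. Cd34 itself read 18.3 and 23.5 on the LT-HSC arrays and 841 and 1142 on the ST-HSC arrays. Of 8 tested sort and stem cell markers 2, Cd34 and Kit, were higher in ST-HSC by limma and 0 were higher in LT-HSC. The median log2 difference of that list, LT-HSC minus ST-HSC, was -0.43. The Kit call was lost under several other settings, among them median-centred arrays and no normalization between arrays.

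ST-HSC replicate 3 stood apart from the other 3 arrays. Its ratio of 3′ to 5′ control probe sets, which falls when longer copies of an RNA reach the array, was 6.65 for beta-actin and 6.59 for Gapdh, against 18.4 to 19.6 and 13.9 to 15.7 on the others. Granulocyte markers summed to 47716 on it, against 492 to 3796 on the others, and immediate early genes summed to 5824, against 26778 on ST-HSC replicate 2 and 45402 and 47636 in LT-HSC. Age, time since injection, 3′ to 5′ ratio and these marker sums differ on this 1 array together and cannot be told apart. LT-HSC in turn carried transcripts of B and plasma cells: 8 of 10 tested marker genes were higher there, with summed intensities of 51609 and 51743 against 2469 and 4109 in ST-HSC. Median intensities of the arrays were 19.1 and 28.3 on the LT-HSC arrays and 26.9 and 25.9 on the ST-HSC arrays.

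The region just before the transcription start is shown for 4 of the 5 genes with a call higher in LT-HSC, not always on all their probe sets. It sets the family's own binding motif and the element of one of its known inputs beside the values. Each is the 250 bases before a RefSeq start (GRCm38.p6), 5′ to 3′, and RefSeq promoter sequences were matched for 9 of the 10 members. Capitals mark the CACCC motif bound by KLFs, the GC box GGGCGG bound by Sp factors and KLFs (either strand for both), and, in Klf2, an element for the MEF2 factors.
Klf2, chr8:72318812-72319061, plus strand: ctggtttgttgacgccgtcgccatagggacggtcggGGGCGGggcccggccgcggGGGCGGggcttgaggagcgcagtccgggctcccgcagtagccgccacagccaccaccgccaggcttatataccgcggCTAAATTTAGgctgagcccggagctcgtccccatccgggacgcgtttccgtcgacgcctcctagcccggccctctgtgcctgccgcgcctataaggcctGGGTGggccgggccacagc
Klf4, chr4:55532476-55532725, minus strand: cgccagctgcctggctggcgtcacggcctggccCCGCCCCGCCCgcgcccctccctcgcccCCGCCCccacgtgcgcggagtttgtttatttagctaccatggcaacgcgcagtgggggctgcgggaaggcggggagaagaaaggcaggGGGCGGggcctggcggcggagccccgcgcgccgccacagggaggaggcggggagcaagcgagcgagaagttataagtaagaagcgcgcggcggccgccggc
Klf6, chr13:5861239-5861488, plus strand: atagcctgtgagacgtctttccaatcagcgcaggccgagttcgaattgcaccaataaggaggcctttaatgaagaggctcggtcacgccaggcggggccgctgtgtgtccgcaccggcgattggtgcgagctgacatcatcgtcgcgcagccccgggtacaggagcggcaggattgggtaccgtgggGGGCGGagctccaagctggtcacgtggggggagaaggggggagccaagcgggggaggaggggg
Klf9, chr19:23140976-23141225, plus strand: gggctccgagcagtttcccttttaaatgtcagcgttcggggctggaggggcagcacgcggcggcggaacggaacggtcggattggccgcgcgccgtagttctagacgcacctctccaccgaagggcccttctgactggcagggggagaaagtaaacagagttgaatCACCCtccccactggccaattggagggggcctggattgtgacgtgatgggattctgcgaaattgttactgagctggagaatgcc

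Among the 9 member promoters the GC box was found in 7, those of Klf2, Klf3, Klf4, Klf6, Klf7, Klf11 and Klf13, and in 32.7% of all 32851 promoters of the table over the same length. CACCC was found in 6 (Klf2, Klf3, Klf7, Klf9, Klf12 and Klf13) and in 52.0% of all promoters, and in Klf3 and Klf13 a CACCC match shares its first or last base with a GC box. The MEF2 element was found in Klf2 alone among the 9, as CTAAATTTAG with its first base 118 bases before the start, and in 1.69% of all promoters. The cyclic AMP response element TGACGTCA and the CArG box of serum response factor were in 0 of the 9 members, against 1.55% and 1.47% of all promoters. The shorter TGACG of the cyclic AMP response element, on either strand, was in 5 (Klf2, Klf4, Klf9, Klf12 and Klf13) and in 17.8% of all promoters. A match describes the letters in this window and is not evidence of binding.

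Of the 26 tested KLF probe sets 20 had differences on the LT-HSC side and 6 on the ST-HSC side. In limma 7 (26.9%) were higher in LT-HSC, where 6.72% of all 27022 tested probe sets were called in that direction, and 0 were higher in ST-HSC, where 5.48% of all were. The filter on dim probe sets used the mean of all 4 arrays, so a probe set dim in 1 cell type could enter through the other. Without it 4 of the 7 calls remained, where 5.52% of all 45037 probe sets were called in either direction. The calls lost were those of Klf4 1417395_at, Klf6 1418280_at and Klf6 1427742_a_at. An unadjusted p under 0.05 was reached by 9 of the 26 (34.6%), from 7 genes, and by 30.4% of all tested probe sets. Both LT-HSC arrays lay above both ST-HSC arrays for 15 of the 26 (57.7%, against 26.9% of all tested), and the reverse held for 2 of the 26 (34.2% of all). The groups did not overlap in either direction for 61.1% of all tested probe sets. The median log2 difference, LT-HSC minus ST-HSC, was 0.60 over the 26 and -0.08 over all tested. The 10 probe sets left untested, spread over Klf3, Klf6, Klf9, Klf12 and Klf13, read between 2.38 and 38.8 on every array. Probe sets of 1 gene often derive from the same sequence record, as do those of Klf4 and all 4 of Klf7, and they are not replicates of each other.

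**Figure D1:**
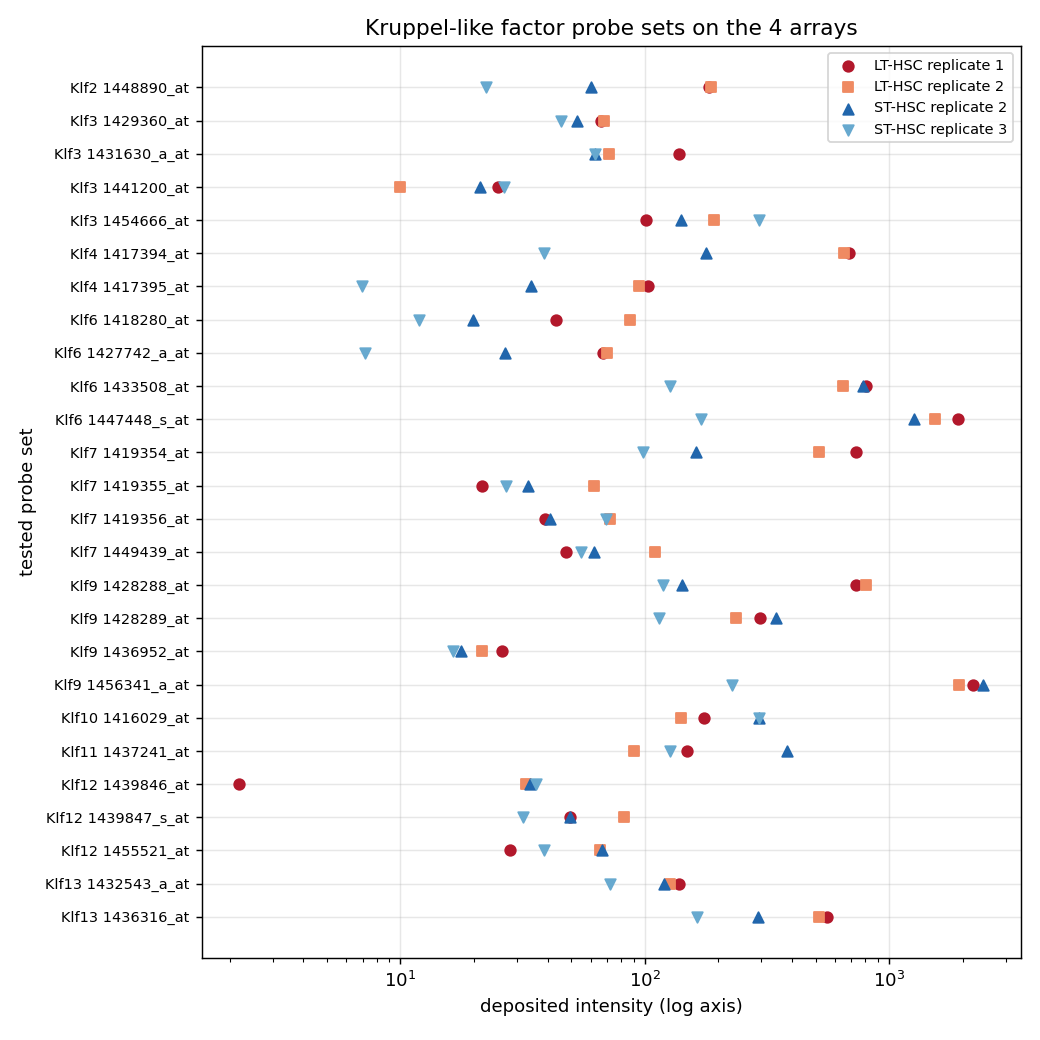
Deposited intensity (log axis) of the 26 tested KLF probe sets, 1 row each, with 1 point for each of the 4 arrays. Klf2, both Klf4 rows, Klf7 1419354_at and Klf9 1428288_at show both LT-HSC points to the right of both ST-HSC points, while Klf9 1456341_a_at shows ST-HSC replicate 3 alone at 228 and the other arrays at 1933 to 2428.

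**Figure D2:**
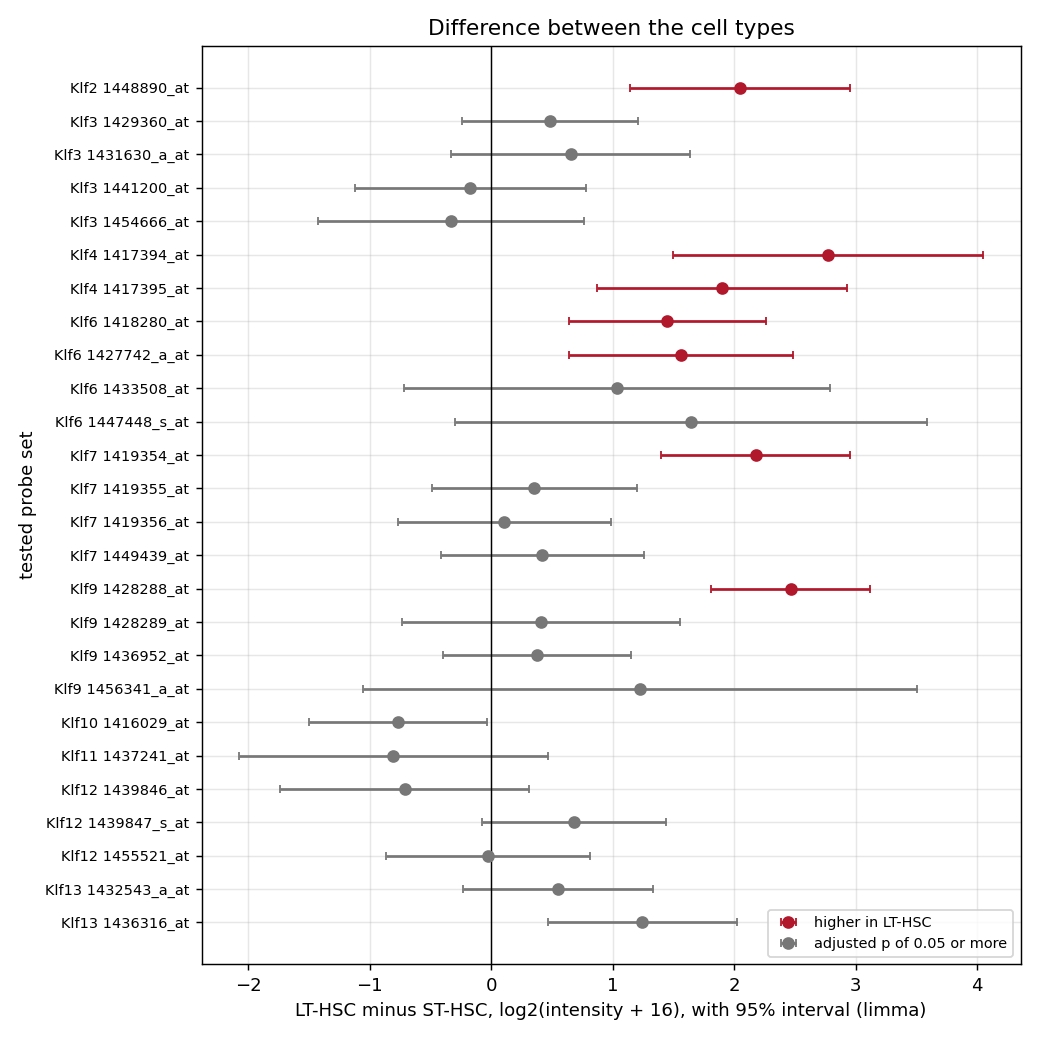
Difference between LT-HSC and ST-HSC on the log2(intensity + 16) scale for the 26 tested KLF probe sets, with the 95% interval of the limma fit (2 arrays a group). The 7 red points, from 1.45 for Klf6 1418280_at to 2.77 for Klf4 1417394_at, passed an adjusted p of 0.05, and the grey points did not.

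Klf2, Klf4, Klf6 and Klf7 belong to the branch of the family known mainly as transcriptional activators. Of their 11 tested probe sets 6 were higher in LT-HSC, where 6.72% of all tested probe sets were called in that direction. Among these calls, those of Klf4 1417395_at, Klf6 1418280_at and Klf6 1427742_a_at were lost without the filter on dim probe sets. All 11 had differences above 0, and the median difference was 1.56. Klf6 and Klf7 gave 4 each of the 11 and Klf4 gave 2, so the probe sets are not independent. The count covers these member genes and not the whole branch. Outside the members, Klf1 lay at -1.01 and the tested Klf5 probe sets at -0.66 and 0.33, none past the threshold. Klf2 has 1 probe set, which read 183 and 187 on the LT-HSC arrays and 60.5 and 22.3 on the ST-HSC arrays. The LT-HSC arrays were nearly alike and lay above both ST-HSC arrays, which differed from each other. In log2(intensity + 16) after quantile normalization Klf2 was 7.70 ± 0.07 (SD, n = 2) in LT-HSC and 5.66 ± 0.63 (SD, n = 2) in ST-HSC, a 4.13-fold difference (2.05, SE 0.38, limma adjusted p = 0.0206).

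Klf4, one of the factors used to reprogram somatic cells to pluripotency, had the largest difference among the members. Probe set 1417394_at read 685 and 651 on the LT-HSC arrays and 179 and 38.5 on the ST-HSC arrays. The groups did not overlap, and the 2 ST-HSC arrays were further apart than the LT-HSC arrays. The means were 9.39 ± 0.03 (SD, n = 2) and 6.62 ± 1.20 (SD, n = 2) in log2, a 6.83-fold difference (2.77, SE 0.54, limma adjusted p = 0.0233). The second Klf4 probe set, 1417395_at, from the same sequence record, read 103 and 94.6 against 34.4 and 6.96 and was also higher in LT-HSC (1.90, SE 0.43, limma adjusted p = 0.0367), a call that was lost without the filter on dim probe sets (adjusted p = 0.0507).

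Klf6, an injury- and serum-induced factor with tumour suppressor activity, was higher in LT-HSC on 2 of 4 tested probe sets. 1418280_at read 43.1 and 86.8 on the LT-HSC arrays and 19.8 and 11.9 on the ST-HSC arrays (1.45, SE 0.34, limma adjusted p = 0.0405). 1427742_a_at read 67.2 and 69.8 against 26.7 and 7.13 (1.56, SE 0.39, limma adjusted p = 0.0466). The other tested Klf6 probe sets did not separate the cell types in the same way: ST-HSC replicate 2 read close to LT-HSC and only ST-HSC replicate 3 was low. 1433508_at read 803 and 649 on the LT-HSC arrays and 780 and 126 on the ST-HSC arrays, with overlapping groups (1.04, 95% interval -0.72 to 2.79, limma adjusted p = 0.385). 1447448_s_at read 1922 and 1541 against 1262 and 170 (1.64, 95% interval -0.30 to 3.59, limma adjusted p = 0.226). These values turned on which ST-HSC array was kept. Both passed with ST-HSC replicate 2 left out, at 2.40 for 1433508_at (adjusted p = 2.86e-06) and 3.19 for 1447448_s_at (adjusted p = 3.00e-08). With ST-HSC replicate 3 left out they stood at -0.24 and 0.19 (adjusted p = 0.346 and 0.370). Both Klf6 calls were lost without ST-HSC replicate 3 (adjusted p = 0.0621 for 1418280_at and 0.0765 for 1427742_a_at), without normalization between arrays (0.0814 and 0.0633) and without the filter on dim probe sets (0.0635 and 0.0682). That of 1427742_a_at was also lost with a pseudocount of 4 (adjusted p = 0.0565) and without the intensity trend (0.0514).

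Klf7, known from the survival and differentiation of sensory neurons, was higher in LT-HSC on 1 of 4 probe sets. 1419354_at read 735 and 515 on the LT-HSC arrays and 162 and 98.4 on the ST-HSC arrays, with no overlap. The log2 means were 9.27 ± 0.33 (SD, n = 2) and 7.09 ± 0.33 (SD, n = 2), a 4.53-fold difference with equal spread in the groups (2.18, SE 0.33, limma adjusted p = 0.0104). The other Klf7 probe sets, made from the same record, had differences from 0.11 for 1419356_at to 0.42 for 1449439_at, with adjusted p-values from 0.461 to 0.868. The widest of their intervals, that of 1419356_at, ran from -0.77 to 0.99 and did not reach the difference of 1419354_at.

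Klf9, Klf10, Klf11 and Klf13 carry an N-terminal segment that recruits the Sin3A corepressor. Of their 8 tested probe sets 1 was higher in LT-HSC and 0 were higher in ST-HSC, against 6.72% and 5.48% of all tested probe sets. The median difference was 0.48. Klf9, which is induced by glucocorticoid and thyroid hormones, gave the call of smallest p among the members. 1428288_at read 735 and 808 on the LT-HSC arrays and 142 and 118 on the ST-HSC arrays. Both pairs were tight and far apart, with log2 means of 9.58 ± 0.11 (SD, n = 2) and 7.12 ± 0.04 (SD, n = 2), a 5.52-fold difference (2.47, SE 0.27, limma adjusted p = 0.00366).

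The other tested Klf9 probe sets did not pass with all 4 arrays. 1456341_a_at read 2203 and 1933 in LT-HSC, 2428 on ST-HSC replicate 2 and 228 on ST-HSC replicate 3. Only the last array was low, so the groups overlapped (1.22, 95% interval -1.06 to 3.50, limma adjusted p = 0.432), and with ST-HSC replicate 3 left out it turned to -0.54, higher in ST-HSC (adjusted p = 0.00391). With ST-HSC replicate 2 left out it was instead higher in LT-HSC, at 3.04 (adjusted p = 1.21e-08). 1428289_at, made from the same record as 1428288_at, read 297 and 236 against 345 and 114 and followed the same pattern (0.41, limma adjusted p = 0.601), at 1.14 with ST-HSC replicate 2 left out (adjusted p = 0.0070) and -0.29 with ST-HSC replicate 3 left out (adjusted p = 0.447). 1436952_at, which was dim, read 26.1 and 21.6 against 17.8 and 16.4, without overlap between the groups (0.38, limma adjusted p = 0.476).

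Klf13, an activator of the chemokine gene Ccl5 in T cells, missed the threshold narrowly. 1436316_at read 556 and 517 on the LT-HSC arrays and 291 and 163 on the ST-HSC arrays, with no overlap (1.24, SE 0.33, 95% interval 0.47 to 2.02, limma adjusted p = 0.0536). It did pass with median-centred arrays (1.34, adjusted p = 0.0391) and without normalization between arrays (1.23, adjusted p = 0.049). With ST-HSC replicate 2 or 3 left out it passed too (1.65, adjusted p = 6.77e-05, and 0.89, adjusted p = 0.00443). 1432543_a_at of Klf13 read 138 and 127 against 120 and 72.2 (0.55, limma adjusted p = 0.303).

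Klf10 and Klf11, known as TGF-beta inducible early genes, had differences on the ST-HSC side. Klf10 read 174 and 140 on the LT-HSC arrays and 294 and 293 on the ST-HSC arrays, without overlap between the groups. Its difference of -0.77 (SE 0.31, 95% interval -1.50 to -0.04) did not pass (limma adjusted p = 0.148), and it passed once ST-HSC replicate 2 was left out (-0.84, adjusted p = 0.0413). Klf11 read 149 and 90.0 on the LT-HSC arrays and 384 and 126 on the ST-HSC arrays. ST-HSC replicate 2 alone was high, the groups overlapped, and the difference of -0.81 (SE 0.53, 95% interval -2.08 to 0.46) did not pass (limma adjusted p = 0.351). It became -1.52 (adjusted p = 0.00537) with ST-HSC replicate 3 left out, and -0.09 (adjusted p = 0.888) with ST-HSC replicate 2 left out.

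Klf3 and Klf12 are repressors that recruit the corepressor CtBP. None of their 7 tested probe sets passed, where 12.2% of all tested did. Of the differences 3 lay above 0 and 4 below, and the median was -0.03. Klf3, with known roles in red cells and B cells, read 66.3 and 68.4 against 52.9 and 45.3 on 1429360_at (0.48, 95% interval -0.24 to 1.21) and 101 and 193 against 140 and 294 on 1454666_at (-0.33, 95% interval -1.43 to 0.76). The first pair of values did not overlap and the second did. With ST-HSC replicate 2 left out 1454666_at passed as higher in ST-HSC (-0.94, adjusted p = 0.0358), and with ST-HSC replicate 3 left out it lay at 0.25 (adjusted p = 0.658). The remaining tested Klf3 probe sets, 1431630_a_at and 1441200_at, had differences of 0.65 and -0.17. Klf12 read 49.6 and 82.6 against 49.3 and 31.7 on 1439847_s_at (0.68, 95% interval -0.07 to 1.44) and 2.18 and 32.6 against 33.8 and 35.9 on 1439846_at (-0.71, 95% interval -1.74 to 0.31). These Klf12 probe sets come from the same record and pointed in opposite directions. The third, 1455521_at, had a difference of -0.03. Limma adjusted p-values over the Klf3 and Klf12 probe sets ran from 0.200 to 0.967.

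The ST-HSC replicates differed from each other over much of the family. On 17 of the 26 tested probe sets ST-HSC replicate 3 was the lowest of the 4 arrays, against 28.2% of all tested probe sets. The ST-HSC replicates were over 1 log2 unit apart on 8 of the 26 (12.5% of all tested) and the LT-HSC replicates on 2. On 9 of the 26 the ST-HSC replicates differed by more than the cell types did. For this count and that of the LT-HSC replicates the share over all tested probe sets was not computed. The median size of the gap between replicates was 0.45 in ST-HSC and 0.36 in LT-HSC over the 26. Over all tested it was 0.39 and 0.26. The gap from ST-HSC replicate 2 to replicate 3 was 3.47 for Klf9 1456341_a_at, 2.91 for Klf6 1447448_s_at, 2.56 for Klf6 1433508_at and 1.70 for Klf4 1417394_at, and only 0.05 for Klf9 1428288_at. Klf3 1454666_at went the other way, at -1.17.

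**Figure D3:**
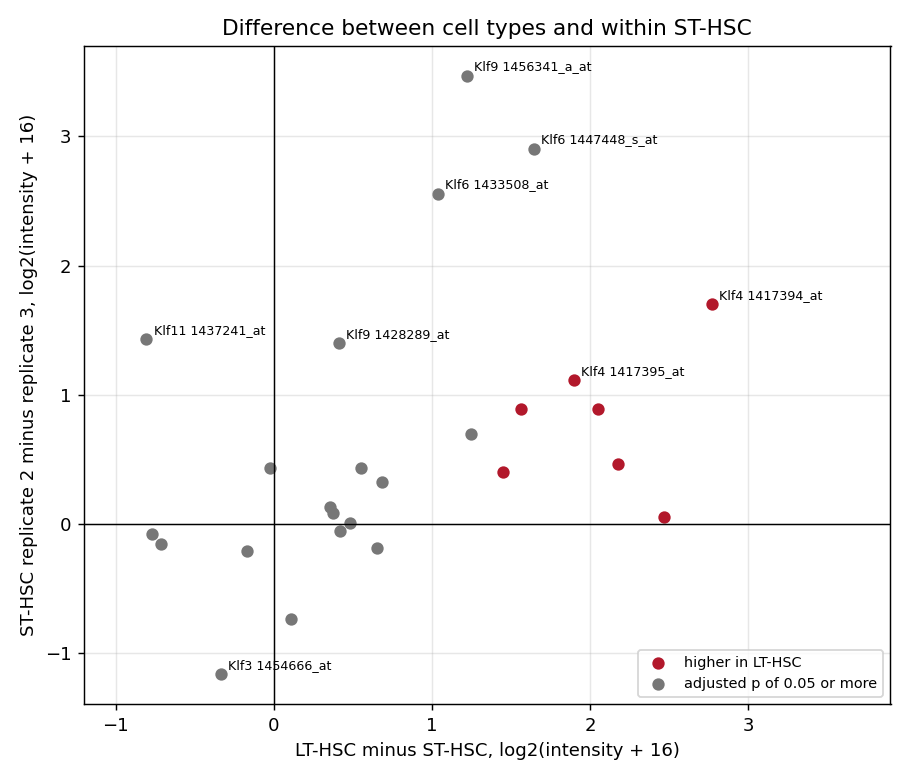
Difference between the cell types (horizontal) against the difference between ST-HSC replicates 2 and 3 (vertical), both on the log2(intensity + 16) scale, for the 26 tested KLF probe sets; red marks an adjusted p under 0.05. Klf9 1428288_at lies at 2.47 and 0.05, while Klf9 1456341_a_at and the grey Klf6 points lie higher on the vertical axis than on the horizontal one.

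The calls depended on having both LT-HSC arrays. Without LT-HSC replicate 1 or 2, 0 of the 7 calls remained, where 1.54% and 1.58% of all tested probe sets were called, although all 7 differences kept their sign. Klf9 1428288_at then stood at 2.46 and 2.40 (limma adjusted p = 0.0915 and 0.0918), and Klf2 at 1.97 and 2.13 (adjusted p = 0.159 and 0.118). With ST-HSC replicate 3 left out, 5 of the 7 calls remained, those of Klf2, Klf4, Klf7 and Klf9, with Klf4 1417394_at at 1.91 (adjusted p = 9.74e-06) and Klf2 at 1.60 (adjusted p = 0.00202), where 22.2% of all tested probe sets were called. With ST-HSC replicate 2 left out all 7 remained and 12 probe sets in all were higher in LT-HSC and 2 in ST-HSC, where 32.5% of all were called in either direction. The fit without ST-HSC replicate 3 also gained calls, for Klf13 1436316_at (0.89), Klf11 1437241_at (-1.52) and Klf9 1456341_a_at (-0.54). The spread in all these fits comes from the pair that stays whole.

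**Figure D4:**
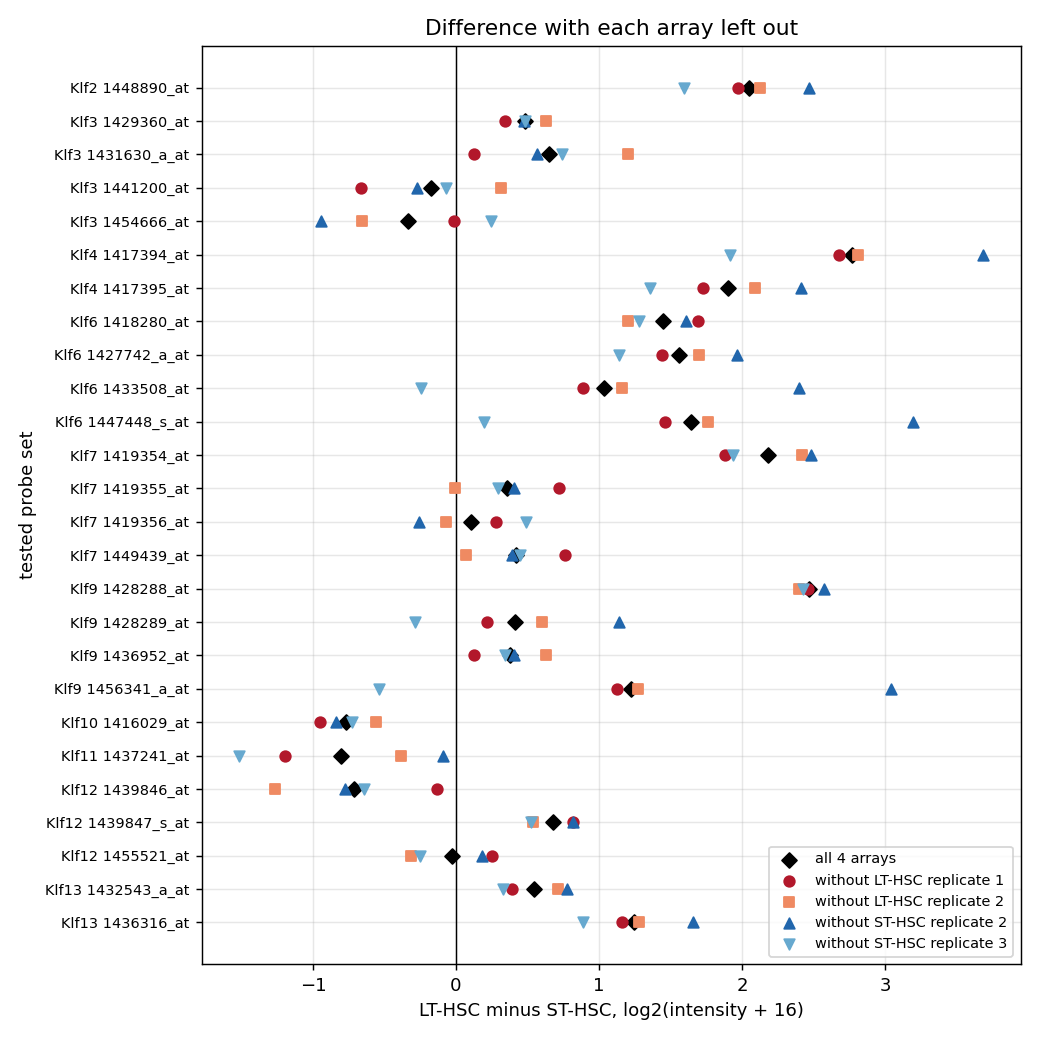
Difference between LT-HSC and ST-HSC on the log2(intensity + 16) scale for the 26 tested KLF probe sets, with all 4 arrays (black) and with each array left out in turn. The points of Klf9 1428288_at stay between 2.40 and 2.57, whereas those of Klf9 1456341_a_at run from -0.54 to 3.04.

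Other members of the KLF and Sp families were set beside these 10. Of 16 such genes 13 had a probe set, 7 were tested on 11 probe sets, and none passed (0 in either direction, median difference -0.10), though with ST-HSC replicate 2 left out Sp4 was higher in LT-HSC and Klf1 in ST-HSC. The closest was Sp4, an Sp factor, with 88.5 and 113 on the LT-HSC arrays and 66.5 and 23.4 on the ST-HSC arrays on 1421504_at (1.20, limma adjusted p = 0.0935). Klf1, the erythroid factor, read 56.1 and 161 against 89.0 and 636, with 1 high ST-HSC array and overlapping groups (-1.01, adjusted p = 0.467).

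Cofactors that KLFs recruit were higher in ST-HSC where they passed. Of 15 tested genes 4 were higher in ST-HSC and 0 in LT-HSC, and 11 missed the threshold, with a median of -0.26. Sap30, a subunit of the Sin3 complex, read 113 and 153 on the LT-HSC arrays and 429 and 377 on the ST-HSC arrays (-1.42, SE 0.29, limma adjusted p = 0.0268). Ctbp2, the CtBP paralogue, read 24.9 and 47.6 against 139 and 221 on 1434705_at (-1.77, SE 0.37, adjusted p = 0.029). The deacetylase gene Hdac2 and the corepressor gene Rcor1 fell in LT-HSC by 2.01 and 1.22 on their best probe sets, while a second Rcor1 probe set lay at 1.24 and did not pass (adjusted p = 0.121). Sin3a itself had differences from -0.42 to -0.01 and Ctbp1 one of -0.26, none past the threshold. With either LT-HSC array left out 0 of these genes passed, and the Rcor1 call was also lost without the filter. More of them passed with either ST-HSC array left out, as did more of all tested probe sets. The median was -0.44 with ST-HSC replicate 3 left out and -0.28 with ST-HSC replicate 2 left out. Without ST-HSC replicate 2 cofactors passed in both directions, Rcor1 being called both ways on different probe sets.

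ERK5 signalling through the MEF2 factors is a known input to Klf2 and Klf4, described mainly in endothelium. Of 9 tested genes of this route 2 were higher in LT-HSC and 0 in ST-HSC, and 7 missed the threshold, with a median of 0.49. Mef2c, a MEF2 factor of lymphoid and myeloid cells, read 2144 and 1656 on the LT-HSC arrays and 662 and 374 on the ST-HSC arrays on 1421027_a_at (1.72, SE 0.33, limma adjusted p = 0.0219), and 3 of its probe sets passed. Mef2a read 331 and 360 against 159 and 150 on 1452347_at (1.17, SE 0.28, adjusted p = 0.0433). The kinase genes above them did not pass: Mapk7, which encodes ERK5, lay at -0.29 (adjusted p = 0.579) and its activator Map2k5 at -0.83 on 1417854_at (adjusted p = 0.121). The other tested Map2k5 probe sets disagreed in sign, at -0.76 for 1455941_s_at (adjusted p = 0.157) and 0.50 for 1430180_at (adjusted p = 0.564). Of the 9 promoter windows searched, that of Klf2 held a MEF2 element. Both calls were lost with either LT-HSC array left out, and that of Mef2a also without normalization between arrays or without the filter. The median was 0.67 with ST-HSC replicate 2 left out and 0.43 with ST-HSC replicate 3 left out. More of these genes passed in both fits, as did more of all tested probe sets. Map2k5 was then among them, as higher in ST-HSC.

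Lymphocyte genes linked to Klf2 or Foxo1, with Foxo1 itself among them, were taken as possible targets and partners. A count over this mixed list is not a measure of Klf2 activity. Of 6 tested genes 3 were higher in LT-HSC and 0 lower, with a median of 2.03 over their probe sets. Il7r, the interleukin-7 receptor, read 981 and 1118 on the LT-HSC arrays and 16.9 and 39.9 on the ST-HSC arrays (4.59, SE 0.37, limma adjusted p = 0.00104). Foxo1, which binds the Klf2 gene in T cells, read 343 and 323 against 43.3 and 23.5 on 1416981_at (2.95, SE 0.33, adjusted p = 0.00359). Cd69, an early activation antigen that removes the S1P receptor from the surface, read 497 and 383 against 155 and 114 (1.66, SE 0.30, adjusted p = 0.019). With LT-HSC replicate 1 left out only the Il7r call remained, and with LT-HSC replicate 2 left out those of Il7r and Foxo1. S1pr1, the sphingosine phosphate receptor that Klf2 activates in T cells, read 14.0 and 20.2 against 47.1 and 25.6 and did not pass (-0.50, adjusted p = 0.343). The LT-HSC arrays held the B and plasma cell markers given above, and of 7 tested T and NK cell genes 3 were higher there and 1 was lower, with summed intensities of 922 and 1639 on the LT-HSC arrays and 1985 and 1932 on the ST-HSC arrays. With LT-HSC replicate 1 or 2 left out, 2 or 1 of these T and NK cell genes were higher in LT-HSC, and the 8 B and plasma cell calls held in both fits. Among B lineage factors, Ebf1 and Pax5 did not pass (0.65, adjusted p = 0.192, and 0.82, adjusted p = 0.275, on their best probe sets). The part of such cells in the KLF values was not tested, and fewer cells of a type cannot be told apart here from less RNA per cell.

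Glucocorticoid response genes, a class to which Klf9 belongs, were mixed. Of 10 tested 1 was higher in LT-HSC, 1 was higher in ST-HSC and 8 did not pass, with a median of 0.25. Tsc22d3 (GILZ, an anti-inflammatory leucine zipper protein) read 513 and 570 against 238 and 102 (1.71, SE 0.38, limma adjusted p = 0.0359). Fkbp5, a chaperone of the glucocorticoid receptor, ran the other way at 54.4 and 63.8 against 212 and 236 (-1.56, SE 0.31, adjusted p = 0.0237). The TGF-beta list held pathway genes as well as early response genes, the class from which Klf10 and Klf11 take their older names. Of its 11 tested genes Skil was higher in LT-HSC by 1.56 (limma adjusted p = 0.0343). Tgfb1 and Smad2, a ligand and a signal transducer, fell by 2.22 and 1.27 there (limma adjusted p = 0.0371 and 0.0443), and the median was -0.15. With either LT-HSC array left out no call remained in these lists (0 genes). Glucocorticoid response genes higher in LT-HSC instead numbered 3 with median-centred arrays and 2 without normalization between arrays. More of them also passed with either ST-HSC array left out, as did more of all tested probe sets. Their median was 0.13 with ST-HSC replicate 2 left out and 0.10 with ST-HSC replicate 3 left out. Fkbp5 stayed the only gene of that list higher in ST-HSC in each of these fits. TGF-beta genes passed in both directions with ST-HSC replicate 2 left out, with a median of 0.09. Smad2 was also lost without normalization between arrays or without the filter, and Skil without the intensity trend.

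Quiescence factors and immediate early genes, the groups whose behaviour KLF genes often share, were higher in LT-HSC where they passed, with Myc and 1 of 2 Egr3 probe sets as exceptions. Of 11 tested quiescence genes 2 were higher in LT-HSC and 0 lower (median 0.47): Btg2, an antiproliferative gene that is also on the immediate early list, at 585 and 674 against 106 and 25.6 (3.26, SE 0.48, limma adjusted p = 0.00998), and Cdkn1a, the cell cycle inhibitor p21, at 310 and 247 against 74.8 and 27.3 (2.35, SE 0.40, adjusted p = 0.0154). Of 16 immediate early genes 4 were higher in LT-HSC, Myc was lower, Egr3 was called in opposite directions on its 2 probe sets, and 10 did not pass (median 1.85). Egr2, an early growth response factor, read 549 and 614 against 28.0 and 3.11 (4.41, SE 0.44, adjusted p = 0.00235), and Fosb read 2117 and 1979 against 289 and 6.11 (4.59, SE 1.06, adjusted p = 0.0378). ST-HSC replicate 3 was the lowest array for Egr2, Fosb, Btg2 and Cdkn1a, as it was for Klf2, Klf4 and Klf6. With LT-HSC replicate 1 or 2 left out, 2 or 1 immediate early genes and 0 quiescence genes were higher in LT-HSC. The immediate early median moved to 2.64 with ST-HSC replicate 2 left out and to 0.72 with ST-HSC replicate 3 left out. That of the quiescence genes moved to 0.67 and 0.19. More genes of both lists passed in these fits, as did more of all tested probe sets. The Fosb call was also lost with a pseudocount of 4, without the intensity trend and with the robust fit. The part of cell handling in the KLF values was not tested.

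Markers of further marrow cells were checked in the same way. Of 8 tested macrophage and monocyte genes 1, Cd68, was higher in LT-HSC, and the list summed to 1525 and 1127 in LT-HSC and to 1067 and 3970 in ST-HSC. The Cd68 call was lost without normalization between arrays and with either LT-HSC array left out. Of 7 tested maturing granulocyte genes 0 passed, with a median of -4.00, and S100a8 read 813 and 18.6 against 1178 and 11465. All 7 were higher in ST-HSC (median -5.95) when replicate 2 was left out and replicate 3 was the remaining ST-HSC array. Of 5 tested erythroid genes 1, Epor, was higher and 1, Car2, was lower in LT-HSC, with sums of 2207 and 2477 against 3440 and 5581. Both erythroid calls were lost without the intensity trend and with either LT-HSC array left out, that of Epor also without the filter and that of Car2 with median-centred arrays. Endothelial and stromal genes, whose cell types express Klf2 and Klf4 strongly, were 0 of 7 past the threshold, with summed intensities of 235 and 248 on the LT-HSC arrays and 337 and 356 on the ST-HSC arrays.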

How the data were processed

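Per the labels' protocols, Trizol-purified RNA of the sorted cells went through 2 rounds of amplification and biotin labelling for Affymetrix mouse arrays. The authors deposited linear intensity values, 1 per array for each of 45101 probe sets. How probes were summarised and whether arrays were scaled is not given in the sources used here. Affymetrix controls (64) entered no test. Probe sets were named by the supplied platform annotation (34945 with 1 symbol, 932 with several, 9160 unnamed here).

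Values were quantile normalized as log2(intensity + 16), a pseudocount that understates folds of dim probe sets. A mean over the 4 arrays above the 40th percentile was required, and 27022 probe sets met it. Groups came from the titles, and were compared in limma 3.58.1 (R 4.3.3; lmFit, eBayes with trend; 2 residual and 4.84 prior degrees of freedom), with Benjamini-Hochberg adjustment over all tested probe sets and a threshold of 0.05. The procedure was tested on simulated data with the same spread on all 4 arrays. The ST-HSC pair was wider here, so that test does not cover this feature of the data. Array values per group are given as deposited, replicates in the order of their numbers, and a positive difference means higher in LT-HSC (SE moderated). The number of arrays limits the precision. Alternatives were other normalizations, pseudocounts, filters and spread models, and each array left out. Members and lists were chosen with earlier results of these data known. Named genes were every member and, per list, up to 4 of smallest p; S1pr1, Sin3a, Ctbp1, Mapk7, Map2k5, Klf1, Ebf1, Pax5 and S100a8 were added after their values were seen. The floxed gene is not reported here. Promoter motifs were searched in Python 3.11.15.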

Additional observations from a re-analysis of the deposited data

How the results depend on the processing

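No paired analysis was possible because the groups share only replicate number 2. The 7 KLF calls became 4 without the filter on dim probe sets, where more probe sets were tested, and 0 to 12 with an array left out. Calls higher in ST-HSC went from 0 to at most 2 with an array left out, and stayed at 0 under the normalization, pseudocount, filter and spread settings. Over all tested probe sets 3296 passed, and 415 to 8774 with an array left out. The split of all calls moved from 55.1% higher in LT-HSC to 96.9% and 94.1% without LT-HSC replicate 1 and 2. Without normalization between arrays the median difference of all tested probe sets moved to -0.16.

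Of 306 values of member probe sets under other settings, 11 changed sign, on 8 probe sets whose differences did not pass with all arrays. Klf7 1419356_at turned to -0.0032 without normalization between arrays and ran from -0.26 to 0.49 with an array left out. With an array left out, Klf7 1419355_at ran from -0.0067 to 0.72, Klf3 1441200_at from -0.66 to 0.32, Klf3 1454666_at from -0.94 to 0.25, Klf6 1433508_at from -0.24 to 2.40, Klf9 1428289_at from -0.29 to 1.14, Klf9 1456341_a_at from -0.54 to 3.04 and Klf12 1455521_at from -0.31 to 0.25. These fits take their spread from the pair left whole; beyond that the cause was not tested. With 2 arrays a group, no array could be tested as an outlier, and signal over background is not given in the table.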
